A study of Arabidopsis thaliana with 18 samples.

Results

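Roots of Arabidopsis plants that had been starved of phosphate and then resupplied were set against roots of plants that had never been starved, over all 22746 probe sets of the ATH1 array other than the manufacturer's controls. The differences are between 6 of the 18 arrays of the series, 3 of recovered roots and 3 of mock roots. Their standard errors and p-values come from a fit of all 18 arrays, shoots included. The question was which transcripts remained away from the never-starved level, and which had crossed it, after 3 days with phosphate. All plants were of the Col-0 ecotype, and all first spent 20 days on hydroponic basal MGRL medium. Recovered plants then spent 10 days in medium in which MES took the place of phosphate and 3 days in full-strength MGRL medium, and were sampled at 33 days of age. Mock plants spent those 10 days in the full-strength medium and were sampled at 30 days of age, so age, past starvation and resupply changed together between the groups and cannot be told apart. Starved plants, sampled at 30 days at the end of the phosphate-free period, give the level from which recovery began.

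Plants short of phosphate raise the transcripts of phosphate transporters, of acid phosphatases that free phosphate from organic compounds, and of enzymes that replace membrane phospholipids with galactolipids and sulfolipids. SPX proteins sense the supply and hold back the PHR transcription factors that drive this programme, and resupply reverses most of it. Phosphate supply also changes the root's handling of iron and zinc and the growth of its root hairs.

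The organ labels fitted their markers. The mean log2 value of 6 green tissue probe sets lay between 4.46 and 4.79 in recovered roots and between 4.16 and 4.75 in mock roots, against 11.9 to 12.1 in recovered shoots and 12.0 to 12.2 in mock shoots. Of those 6, LHCB4.1, a light-harvesting antenna protein of photosystem II, was called higher in recovered roots, at 7.28, 7.34 and 7.72 against 6.29, 6.93 and 6.35 in mock roots, and the part of green tissue in the other results was not tested. Leaving out mock array 1 or recovered array 3 ended that call, with an adjusted p of up to 0.0571 by limma and a difference of 0.81. The 2 root markers, PYK10 and NAI2, averaged 11.0 to 11.3 in recovered roots and 10.8 to 11.1 in mock roots. Over the 9 root arrays, 2 principal components held 52.5% and 19.1% of the variance. Recovered array 1 stood apart from the others of its group on the second component, at 11.3 against -30.3 and -28.5, where the mock arrays lay between 6.13 and 28.0. Starved array 3 lay at 23.3 on the first component, between the other starved arrays at 52.1 and 49.5 and the mock arrays at -18.7 to -11.2. Results are therefore also given without recovered array 1. In whole roots, fewer cells of a type and less RNA per cell cannot be told apart.

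A total of 407 probe sets (1.79% of those tested) were higher and 246 (1.08%) were lower in recovered than in mock roots at an adjusted p of 0.05 or less (limma, Benjamini-Hochberg over all probe sets), 2.87% in either direction. Most differences were small, with a median of 0.62 on the log2 scale among the rises and -0.64 among the falls, and 57 rises and 49 falls reached 1, a 2-fold change. The median over all probe sets was -0.01. The 3 values of the groups did not overlap for 638 of the 653 called probe sets, against 22.7% of all probe sets. By comparison, the starved roots had 1189 probe sets above (5.23%) and 1027 below (4.52%) the same mock arrays. At an adjusted p of 0.001 or less, 5 probe sets were higher (0.022%) and 10 were lower (0.044%), 0.0659% in either direction.

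The counts leaned on single arrays and on which arrays entered the fit. With only the 9 root arrays, 64 probe sets were higher and 51 lower. With only the 6 recovered and mock root arrays, 36 were higher and 28 lower. Recovered array 1 was the lowest of its group for 276 of the 407 rises and the highest for 136 of the 246 falls. Without it the counts became 1020 higher and 587 lower, of which 363 and 209 were among the original calls. Without recovered array 2 they were 97 and 82, and without recovered array 3 they were 48 and 50. Without mock array 1 they were 56 and 39, and without mock array 3 they were 79 and 75. Starved array 3 entered only through the shared estimate of spread, and without it 627 probe sets were higher and 346 lower. Of the 653 calls, 572 remained without recovered array 1 and 93 without either recovered array 3 or mock array 1.

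**Figure D1:**
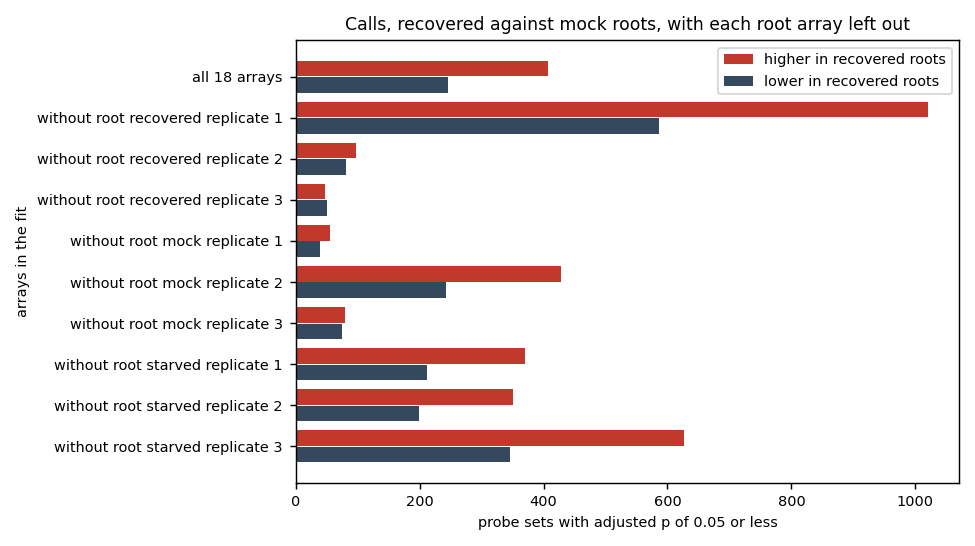
Number of probe sets called higher (red) or lower (dark) in recovered roots against mock roots at an adjusted p of 0.05 or less, on the x axis, for the fit of all 18 arrays and for fits that leave out each root array in turn, down the page, as bars from 0. The rises run from 48 without recovered array 3 to 1020 without recovered array 1.

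The transcripts furthest below the never-starved level were those of a metal transporter, a carbonic anhydrase and a gene with no symbol here. MTPA1, of the metal tolerance protein family of zinc transporters, had log2 values of 5.16, 4.94 and 4.36 in recovered roots and 9.08, 8.94 and 9.17 in mock roots. The groups lay far apart, an 18.9-fold difference (-4.24 ± 0.25, SE, adjusted p = 1.5e-07 by limma). CA2, a beta carbonic anhydrase that converts carbon dioxide and bicarbonate into each other, had 5.20, 5.61 and 4.35 in recovered roots and 8.70, 8.62 and 8.63 in mock roots. The mock arrays hardly differed among themselves, and the difference of -3.60 ± 0.28 (SE, adjusted p = 5.28e-06 by limma) was a 12.1-fold one. AT1G12030 had 5.42, 4.96 and 4.58 in recovered roots and 8.70, 8.14 and 8.76 in mock roots, again without overlap (-3.55 ± 0.31, SE, adjusted p = 1.84e-05 by limma). None of these 3 had moved back towards the mock level. Their recovered means of 4.82, 5.05 and 4.99 were lower than their starved means of 5.72, 6.51 and 5.97 (adjusted p of 0.0141, 0.00151 and 0.0289 by limma).

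Other falls with an adjusted p of 0.001 or less involved a signalling kinase and cell wall enzymes. CIPK22, a kinase of the family that interacts with calcineurin B-like calcium sensors, had 5.66, 5.30 and 4.90 in recovered roots against 7.34, 6.81 and 6.76 in mock roots, and its starved mean was 5.24. AT1G11920, of the pectate lyase family, had 4.70, 4.12 and 4.19 in recovered roots against 5.75, 5.87 and 5.97 in mock roots. AT5G51890, a class III peroxidase, had 6.24, 6.07 and 6.33 in recovered roots against 7.44, 7.09 and 7.62 in mock roots. In all 3 the groups were separate, and the differences were -1.68, -1.53 and -1.17. AT5G51890 averaged 7.70 in starved roots, which did not differ from mock roots at the threshold (adjusted p = 0.168 by limma). AT4G12360, whose starved mean of 6.06 was likewise near its mock mean of 6.14, had 4.69, 4.26 and 4.57 in recovered roots against 6.53, 5.70 and 6.18 in mock roots. AT5G14540 had 8.23, 8.07 and 7.92 in recovered roots against 9.20, 8.99 and 9.32 in mock roots. BSK9, of the brassinosteroid signalling kinase family, had 5.15, 5.72 and 5.41 in recovered roots against 6.79, 6.65 and 6.56 in mock roots, although starved roots had held more of it than mock roots (mean 7.27). A further probe set at this level had no gene name here.

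The rises at an adjusted p of 0.001 or less were fewer. AT5G26130, of the family of secreted proteins related to pathogenesis-related protein PR-1, had 7.21, 6.58 and 7.65 in recovered roots and 4.21, 4.68 and 3.66 in mock roots. This was a 7.8-fold excess over the mock level (2.96 ± 0.24, SE, adjusted p = 5.28e-06 by limma), reached from a starved mean of 3.14 that lay below it. AT5G26270 had 7.21, 7.69 and 7.59 in recovered roots and 5.89, 6.09 and 5.26 in mock roots, and had already been high in starved roots (mean 7.04). AT1G33813 was dim in both groups, at 4.26, 3.87 and 4.78 in recovered roots and 2.55, 3.02 and 2.39 in mock roots. GPX1, a glutathione peroxidase that reduces peroxides, had 8.35, 8.26 and 8.44 in recovered roots and 7.31, 7.59 and 7.40 in mock roots. SVP, a MADS-box transcription factor known as a repressor of flowering, had 9.72, 9.67 and 9.69 in recovered roots and 8.98, 9.10 and 8.92 in mock roots. Its difference of 0.69 ± 0.08 (SE, adjusted p = 0.000235 by limma) was the smallest of the named genes at this threshold, and its recovered arrays hardly differed among themselves. All 14 named genes at this threshold kept an adjusted p at or under 0.05 in each of the 9 fits that left out a root array.

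**Figure D2:**
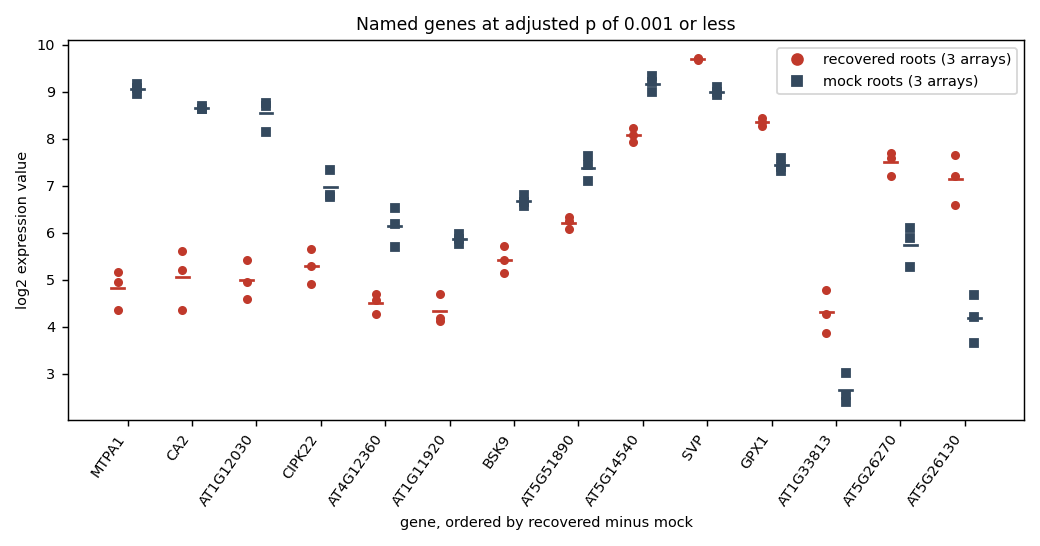
Log2 expression values (y axis) of the 14 named genes with an adjusted p of 0.001 or less, in recovered roots (red circles, left of each pair) and mock roots (dark squares), 3 arrays each, with a bar at the group mean. The groups do not overlap for any of the 14 genes, which the naming rule required, and the shift is widest for MTPA1 and narrowest for SVP.

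Among the other large falls, the zinc transporter ZIP9, of a family that brings zinc into the cell, had 8.11, 7.76 and 7.46 in recovered roots against 10.14, 9.68 and 10.03 in mock roots. AT1G20380, of the prolyl oligopeptidase family, had 8.41, 7.97 and 7.43 in recovered roots against 10.57, 10.32 and 10.62 in mock roots. CYP71B5, a cytochrome P450, had 5.0, 4.48 and 3.95 in recovered roots against 7.24, 6.10 and 6.52 in mock roots. These 3 groups of values were separate and the calls held in each fit that left out an array, as did that of PP2-A4, a gene of the phloem lectin family (-1.42 ± 0.18, SE). CYP71B5 and PP2-A4 had partly returned, with recovered means of 4.48 and 4.42 above starved means of 3.41 and 3.89 (adjusted p of 0.013 and 0.0437 by limma). ChiC, a chitinase, differed by -1.70, AT3G02480 of the late embryogenesis abundant family by -1.40, AT4G11190 of the dirigent family by -1.26, AT1G20390 by -1.39 and AT2G30670 by -1.84. Each of these 5 lost its call in at least 1 fit that left out an array. The highest adjusted p was 0.0653 for ChiC, 0.0505 for AT1G20390, 0.0614 for AT4G11190 and 0.0993 for AT2G30670 without recovered array 3, and 0.0539 for AT3G02480 without mock array 1, and the differences there were -1.50, -1.38, -0.96, -1.60 and -1.16. AT4G11190 was also lost without mock array 1, and AT2G30670 without mock array 3 or recovered array 2.

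The remaining large rises included several regulators. MYBL2, a MYB protein that represses flavonoid synthesis, had 5.48, 6.32 and 6.59 in recovered roots against 3.96, 4.76 and 4.13 in mock roots. The difference was 1.85 ± 0.29 (SE), and 2.17 without recovered array 1. NAC080, a NAC transcription factor, had 5.78, 7.10 and 6.61 in recovered roots against 4.86, 5.33 and 5.01 in mock roots. AT4G33720, another relative of PR-1, was among the brightest probe sets, with 12.13, 12.11 and 12.31 in recovered roots against 10.51, 10.49 and 10.79 in mock roots. AT1G07550, of the receptor-like kinase family, had 4.92, 5.88 and 5.64 in recovered roots against 3.83, 4.27 and 3.96 in mock roots. These 4 kept the call whichever array was left out, although NAC080 came to an adjusted p of 0.0486 by limma without mock array 1. None of the 4 had differed from mock in starved roots at the threshold (adjusted p of 0.321, 0.88, 0.489 and 0.344 by limma).

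In a further group of transcripts the rise was smallest in recovered array 1, and the call depended on single arrays. AT1G33055, a gene known to be induced by low oxygen, had 7.17, 8.35 and 8.66 in recovered roots against 5.72, 6.80 and 6.00 in mock roots. AT5G56100 had 8.05, 9.23 and 9.54 in recovered roots against 6.73, 7.65 and 7.0 in mock roots. AGT, the peroxisomal alanine:glyoxylate aminotransferase of photorespiration, had 8.72, 9.82 and 9.93 in recovered roots against 7.36, 8.44 and 7.74 in mock roots. In each case recovered array 1 came close to mock array 2, the highest of its group. The differences were 1.89, 1.81 and 1.64, and 2.33, 2.26 and 2.03 without recovered array 1. AT1G19530, AT1G76590 of the PLATZ zinc-finger family, AT2G42140 and the thioredoxin-like CXXS1 differed by 1.86, 1.60, 1.56 and 1.44. All 7 lost the call when mock array 1, mock array 3, recovered array 2 or recovered array 3 was left out. Their highest adjusted p in these fits ran from 0.0827 for CXXS1, at a difference of 1.32, to 0.198 for AT1G76590, at a difference of 1.26, both without recovered array 3.

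Set beside the starved roots, the 653 called probe sets fell into 3 kinds. A total of 120 remained displaced on the side to which starvation had moved them, 49 higher and 71 lower. A further 65 were past the mock level, 34 higher after being lower in starved roots and 31 lower after being higher. The other 468, 324 higher and 144 lower, were not called in starved roots. These counts describe the calls and carry no test, because both differences use the same mock arrays. Without recovered array 1 the first 2 kinds held 292 and 144 probe sets, without recovered array 2 they held 43 and 26, and without recovered array 3 they held 29 and 18. Without mock array 1, 2 or 3 the second kind held 8, 40 and 15, and the first held 26, 131 and 44. Without starved array 1, 2 or 3 the second kind held 40, 38 and 189.

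Among named genes whose recovered and mock values did not overlap, the largest falls that remained displaced were MTPA1, CA2, AT1G12030, ZIP9, CYP71B5 and AT2G30670, and the largest rises were AT5G26270 and AT2G42140, all described above, with the following. AGL79, a MADS-box gene, had 5.24, 5.22 and 5.6 in recovered roots and 3.88, 4.12 and 3.88 in mock roots, with a starved mean of 4.9. HIS1-3, a linker histone known for its induction by drought, had 5.49, 5.44 and 5.94 in recovered roots and 4.06, 4.42 and 4.91 in mock roots, with a starved mean of 5.44. CYP71B26, a cytochrome P450, had 7.17, 7.81 and 7.72 in recovered roots and 6.25, 6.89 and 5.92 in mock roots, with a starved mean of 7.22. In none of AGL79, HIS1-3 and CYP71B26 had the recovered mean turned back towards the mock mean. AT1G66800 averaged 5.43 in recovered, 4.29 in mock and 5.79 in starved roots, and its recovered and starved values did not differ at the threshold (adjusted p = 0.286 by limma). AGL79 kept its call in each fit that left out an array. HIS1-3, CYP71B26 and AT1G66800 did not, and were lost without mock array 1, recovered array 2 or recovered array 3. Their highest adjusted p was 0.13, 0.0809 and 0.126, at differences of 0.96, 1.14 and 0.90. CYP71B26 was also lost without mock array 3.

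The mock level was crossed by transcripts of kinases, growth regulators and an enzyme that frees phosphate. SNRK2-8, a kinase of the SnRK2 family that acts in osmotic and abscisic acid signalling, had 9.99, 10.45 and 10.45 in recovered roots and 8.69, 9.10 and 8.78 in mock roots, and its starved mean was 8.0. AT4G16000 had 6.63, 7.09 and 7.27 in recovered roots and 5.40, 5.96 and 5.37 in mock roots, with a starved mean of 4.49. AT4G39675 had 11.33, 11.98 and 12.15 in recovered roots and 10.23, 10.86 and 10.32 in mock roots, with a starved mean of 8.03. FPF1, a small protein that promotes flowering, and HLS1, a regulator of differential growth in the apical hook, differed from mock by 0.96 and 0.94 in recovered roots and by -0.96 and -0.72 in starved roots. In the other direction, PPa3, a soluble inorganic pyrophosphatase, had 5.55, 5.66 and 5.66 in recovered roots and 6.6, 6.06 and 6.54 in mock roots, with a starved mean of 8.21. GSTU20, a glutathione transferase, AT2G19410, AT3G01730 and RSH2 (AT1G12950), a root hair specific gene, differed from mock by -0.94, -1.03, -0.77 and -0.83 in recovered roots and by 1.04, 0.92, 0.94 and 0.78 in starved roots. SNRK2-8, AT4G16000, BSK9 and AT5G26130 kept the call in each fit that left out an array, although SNRK2-8 came to 0.0486 without mock array 1. The other 8 genes lost it in at least 1. Their highest adjusted p was 0.19 for AT4G39675, 0.1 for FPF1, 0.075 for HLS1, 0.177 for GSTU20 and 0.141 for RSH2 without recovered array 3, and 0.172 for PPa3, 0.0573 for AT2G19410 and 0.0573 for AT3G01730 without mock array 1. The differences there were 1.19, 0.80, 0.79, -0.63, -0.78, -0.68, -0.82 and -0.65. AT4G39675, HLS1, GSTU20, RSH2 and PPa3 were lost without mock array 1, mock array 3, recovered array 2 or recovered array 3 alike, and FPF1 without mock array 1 or recovered array 3.

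**Figure D3:**
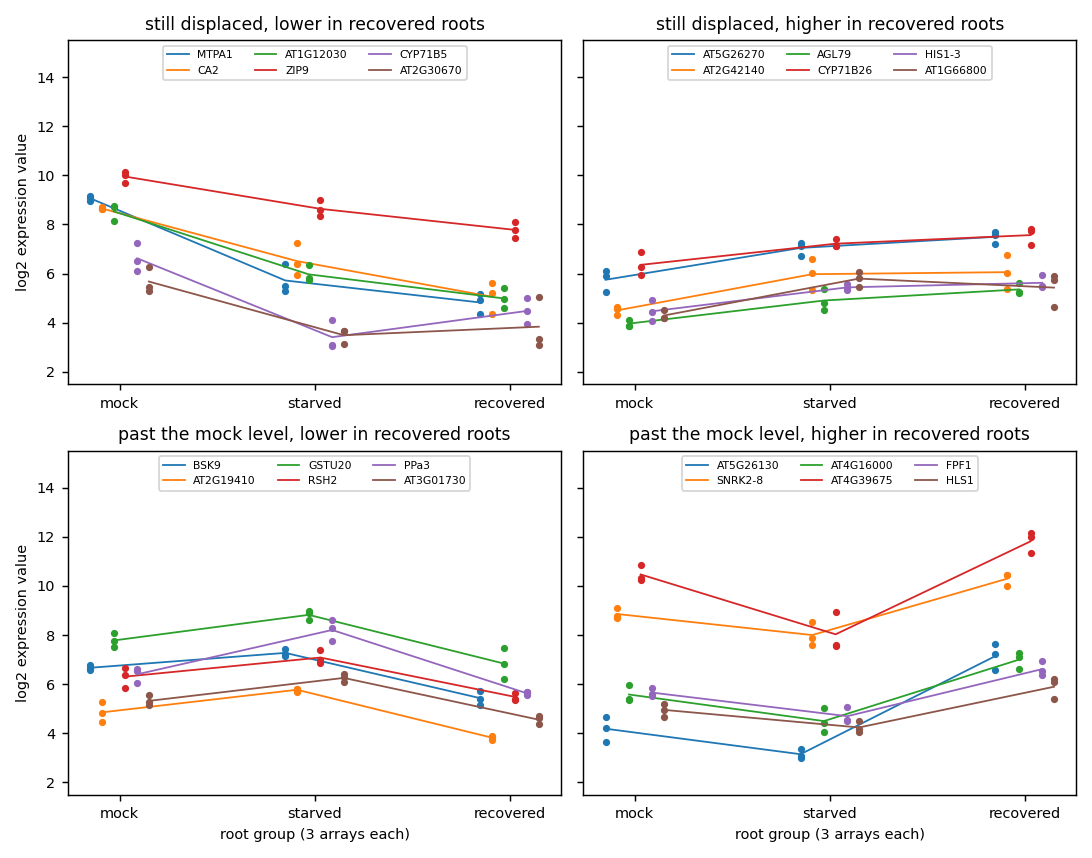
Log2 expression values (y axis) in mock, starved and recovered roots (x axis, 3 arrays each as points, lines through group means) for the 6 largest named genes with separate groups, of each kind and direction. In the upper panels the recovered values stay on the starved side of mock, as for MTPA1, and in the lower panels they lie beyond mock on the other side, as for AT5G26130.

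The named transcripts that starvation had raised most stood near the mock level after resupply. Of the 20 named probe sets with the largest starved rises, of 3.53 to 8.19, the recovered minus mock difference ran from -0.91 to 0.97 with a median of 0.01, and 1 was called. That one, AT2G30540, a member of the glutaredoxin family named here for its call, had 3.57, 4.60 and 4.85 in recovered roots against 3.28, 3.54 and 3.29 in mock roots, a difference of 0.97. The 20 largest starved falls, of -3.78 to -2.5, had a median recovered difference of -1.33, and 4 were called lower, namely MTPA1, AT1G12030, CYP71B5 and AT5G55620. The call of AT2G30540 was lost without mock array 1 or 3 or recovered array 2 or 3, with an adjusted p of at most 0.145 at a difference of 0.72. That of AT5G55620 (-1.87) was lost in all fits without 1 root array but those without starved array 3 or recovered array 1, with an adjusted p of at most 0.221 at -1.54. Both differences share the mock arrays, so the values are given side by side only. Most of the rises, such as SPX1, and some of the falls, such as MYB72, were named only through the study's table of probe sets called in roots. Their selection depends on these samples, and more so among the rises.

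Among phosphate transport genes, 1 of 9 measured genes was called higher, against 1.79% of all probe sets, and none lower, and their median difference was -0.10. Measured here means having a named probe set, which 9 of the 14 listed transport genes had. Other listed genes may be among the unnamed probe sets. PHO1, which loads phosphate into the xylem, had 9.93, 10.30 and 10.20 in recovered roots against 9.56, 9.92 and 9.41 in mock roots (0.51 ± 0.13, SE, adjusted p = 0.0448 by limma). Its groups barely separated, and the call was lost in 6 of the 9 fits that left out a root array, namely those without mock array 1 or 3, starved array 1 or 2, or recovered array 2 or 3. The highest adjusted p was 0.19, without mock array 3, at a difference of 0.40. The phosphate transporters PHT1;3, PHT1;5, PHT1;8 and PHT1;9 differed by -0.23, 0.27, 0.16 and -0.20 and were not called, after starved values 1.78 to 4.16 above mock. PHF1, which lets phosphate transporters leave the endoplasmic reticulum, differed by -0.14. PHT2;1, the plastid transporter, had 5.20, 4.95 and 4.65 in recovered roots against 5.81, 5.45 and 5.43 in mock roots, and did not pass (adjusted p = 0.067 by limma). Of the 9 genes, 8 were named only through a supplementary table of probe sets that the study had called in roots, so their selection depends on these samples.

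Of the phosphate signalling genes, 1 of 10 probe sets was called higher and 1 lower, against 1.79% and 1.08% of all probe sets. HHO2 (AT1G68670), a GARP-family repressor that responds to nitrate and phosphate, had 8.18, 8.32 and 8.46 in recovered roots against 7.82, 7.96 and 7.95 in mock roots. LPR1, a multicopper oxidase that acts in the root tip's growth response to low phosphate, had 3.94, 4.11 and 4.06 in recovered roots against 4.54, 4.42 and 4.86 in mock roots. Both groups of values were separate but the differences were small, at 0.41 and -0.57, and each call was lost in 5 of the 9 fits, to an adjusted p of up to 0.192 without recovered array 3 for HHO2 (difference 0.34) and 0.176 without mock array 3 for LPR1 (difference -0.44). HHO2 kept its call without recovered array 1 and LPR1 without mock array 2, and each was lost without any other single recovered or mock array. SPX1, SPX2 and SPX3, sensors of phosphate supply, differed by -0.42, 0.07 and 0.11 and did not pass. HHO1 (AT3G25790), a relative of HHO2, had 6.81, 7.58 and 7.78 in recovered roots against 6.58, 6.69 and 6.49 in mock roots and did not pass (adjusted p = 0.0739 by limma).

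No acid phosphatase or lipid remodelling gene was called in either direction, of 9 and 12 measured, and their medians were -0.14 and 0.045. The unadjusted limma p was at or under 0.05 for 2 and 1 of them, against 18.3% of all probe sets. Of the 9 and 12 genes, 8 and 11 were named only through the study's table of probe sets called in roots. Their selection therefore depends on these samples. PAP17, an acid phosphatase of starved and ageing tissue, had 5.55, 5.37 and 5.42 in recovered roots against 4.79, 4.87 and 4.65 in mock roots, separate groups whose adjusted p was 0.0921 by limma, and 10.95, 11.11 and 10.32 in starved roots. PAP10, PAP22 and PS2, also phosphatases, differed by -0.55, 0.33 and -0.24. The galactolipid synthase MGD3, the sulfolipid synthases SQD1 and SQD2, and the phospholipase PLDP2 differed by 0.15, 0.01, -0.04 and 0.06. GDPD1, a glycerophosphodiester phosphodiesterase, differed most of the lipid genes, by 0.53, and did not pass (adjusted p = 0.185 by limma).

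Zinc transport genes moved in both directions, where 1.79% of all probe sets were called higher and 1.08% lower. Of 4 measured, MTPA1 and ZIP9 were lower and HMA4, a zinc-exporting ATPase that loads the xylem, was higher. HMA4 was named only through the study's table of probe sets called in roots, so its selection depends on these samples. HMA4 had 8.92, 9.26 and 9.46 in recovered roots against 8.46, 8.53 and 8.37 in mock roots (0.76 ± 0.14, SE). Its call was lost without mock array 1, mock array 3 or recovered array 3, where its adjusted p was at most 0.0679 and the difference 0.64. bZIP19, a transcription factor that responds to zinc deficiency, differed by 0.07 and did not pass.

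All 10 measured iron uptake genes, of 26 listed, lay below mock, with a median of -0.56, against -0.01 over all probe sets. The study's table of probe sets called in roots named 4 of the 10, so their selection depends on these samples. Of the 10, 1 was called, where 1.08% of all probe sets were called lower. That gene, BGLU42, a beta-glucosidase that acts with MYB72 in the release of iron-mobilising coumarins, had 9.54, 8.98 and 8.84 in recovered roots against 10.71, 10.03 and 9.71 in mock roots. The call was lost without mock array 1, recovered array 2 or recovered array 3, to an adjusted p of 0.141 in the last of these, at a difference of -0.89. MYB72, a transcription factor of the iron deficiency response, had 7.19, 6.44 and 6.6 in recovered roots against 8.78, 8.19 and 7.64 in mock roots, and did not pass (adjusted p = 0.0835 by limma). The list as a whole was further below mock in starved roots, with a median of -1.53. Of the iron storage genes, NAS3, which makes the metal chelator nicotianamine, had 3.82, 3.74 and 3.62 in recovered roots against 5.11, 4.39 and 4.97 in mock roots and was called lower, and the ferritins FER2 and FER3 differed by -0.23 and -0.39 and did not pass. The NAS3 call was lost without mock array 1, mock array 3 or recovered array 3, with an adjusted p of at most 0.0857 and a difference of -0.95. All 3 measured iron storage genes were named only through the study's table.

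All 11 root hair genes also lay below mock, with a median of -0.32, and 3 were called lower, against 1.08% of all probe sets. EXPA18, an expansin of root hairs, had 7.10, 6.98 and 7.07 in recovered roots against 7.88, 7.54 and 8.02 in mock roots, and 8.44, 8.66 and 8.34 in starved roots. EXPA7, its close relative, had 8.28, 7.99 and 8.33 in recovered roots against 9.11, 8.74 and 9.10 in mock roots. RHS19, a peroxidase specific to root hairs, had 9.42, 9.34 and 9.54 in recovered roots against 10.00, 9.74 and 9.89 in mock roots. The groups were separate in all 3, and all of the 11 genes but EXPA7 had been called higher in starved roots. The 3 calls were lost without mock array 1 or 3 or recovered array 2 or 3, and that of EXPA7 also without starved array 1 or 2. Their adjusted p reached 0.0763, 0.176 and 0.14 without mock array 1, at differences of -0.73, -0.72 and -0.38. Of the 11 genes, 8 were named through the study's table of probe sets called in roots. Of 15 other expansins and xyloglucan enzymes none was called (median -0.23), the nearest being XTH12 and XTH32 at -0.58 and -0.81 with adjusted p of 0.0665 and 0.071 by limma.

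Low-oxygen genes gave 2 calls of 9 measured, both higher, against 1.79% of all probe sets, with a median of 0.29. The list held 20 genes. Of the 9, 3 were named only through the study's table of probe sets called in roots, including ERF73, so their selection depends on these samples. Besides AT1G33055, described above, ERF73 (HRE1), an ethylene response factor of the hypoxia response, had 9.57, 10.25 and 10.40 in recovered roots against 8.94, 9.08 and 8.83 in mock roots. As for AT1G33055, recovered array 1 was the lowest of its group, and the call was lost without mock array 1 or 3 or recovered array 2 or 3, with an adjusted p of at most 0.168 at a difference of 0.96. For AT1G33055 the highest was 0.177, at 1.59. CML38, a calmodulin-like protein, had 6.52, 6.35 and 7.0 in recovered roots against 5.07, 5.57 and 5.96 in mock roots, and the pyruvate decarboxylase gene PDC2 had 8.14, 8.64 and 8.47 against 7.90, 7.88 and 7.56. These 2 did not pass (adjusted p of 0.074 and 0.0906 by limma).

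Single members were called in the lists of cytokinin (1 of 7, higher), sulfate (1 of 5, lower), nitrogen (1 of 2, higher), flavonoid (1 of 4, higher) and secondary wall genes (1 of 2, lower), the last 2 being MYBL2 and the peroxidase AT5G51890. Over all probe sets, 1.79% were called higher and 1.08% lower. The study's table of probe sets called in roots named 5, 2, 2, 1 and 1 of the measured members of these lists, in that order. CRF6, a cytokinin response factor, had 6.88, 7.36 and 7.55 in recovered roots against 5.92, 6.36 and 6.09 in mock roots. APS3, an ATP sulfurylase of sulfate assimilation, had 8.20, 7.35 and 7.53 in recovered roots against 9.08, 8.35 and 8.96 in mock roots. NIA1, a nitrate reductase, had 11.81, 12.19 and 12.07 in recovered roots against 11.32, 11.73 and 11.52 in mock roots, a difference of 0.50 ± 0.13 (SE) after a starved value of -0.99. The calls of CRF6, APS3 and NIA1 were lost without mock array 1 or 3 or recovered array 2 or 3, and that of NIA1 also without starved array 2. Their adjusted p was at most 0.105, 0.112 and 0.214, at differences of 1.0, -0.96 and 0.40. No member was called among the auxin (9), abscisic acid (5), senescence (5), cell division (4), heat shock (4), starch and sugar (4), jasmonate (3), Casparian strip (1), phenylpropanoid (1) and circadian clock (1) genes measured. In all, 13 lists with 73 probe sets had no call. An unadjusted limma p at or under 0.05 was found for 15 of the 73, against 18.3% of all probe sets. Across the lists just named the differences ranged from -0.56 to 0.65. No gene of the salicylate list had a named probe set.

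The study called a gene persistent where starved roots differed from mock roots and recovered roots did not differ from starved roots. That label used a Bonferroni correction and a stricter threshold than here, and did not use recovered against mock roots. The counts given here are of a different contrast and do not test it. Among all probe sets, 1.79% were called higher and 1.08% lower in recovered against mock roots. Of 15 genes that the study itself had singled out as persistent, 1 was called higher and 3 lower. The lower ones were MTPA1, CIPK22 and WAKL4, a wall-associated kinase with 7.42, 6.48 and 6.75 in recovered roots against 8.12, 7.5 and 8.19 in mock roots. The higher one was NF-YA3, a subunit of the NF-Y transcription factor, with 6.94, 7.24 and 7.37 in recovered roots against 6.53, 6.36 and 6.29 in mock roots. Its recovered mean of 7.18 was close to the starved mean of 7.21. The list was chosen on these samples and is not independent evidence of its direction. WAKL4 was lost without mock array 1 or 3 or recovered array 2 or 3, with an adjusted p of at most 0.152 at a difference of -0.96, and NF-YA3 without recovered array 3, with an adjusted p of 0.0591 at 0.70.

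**Figure D4:**
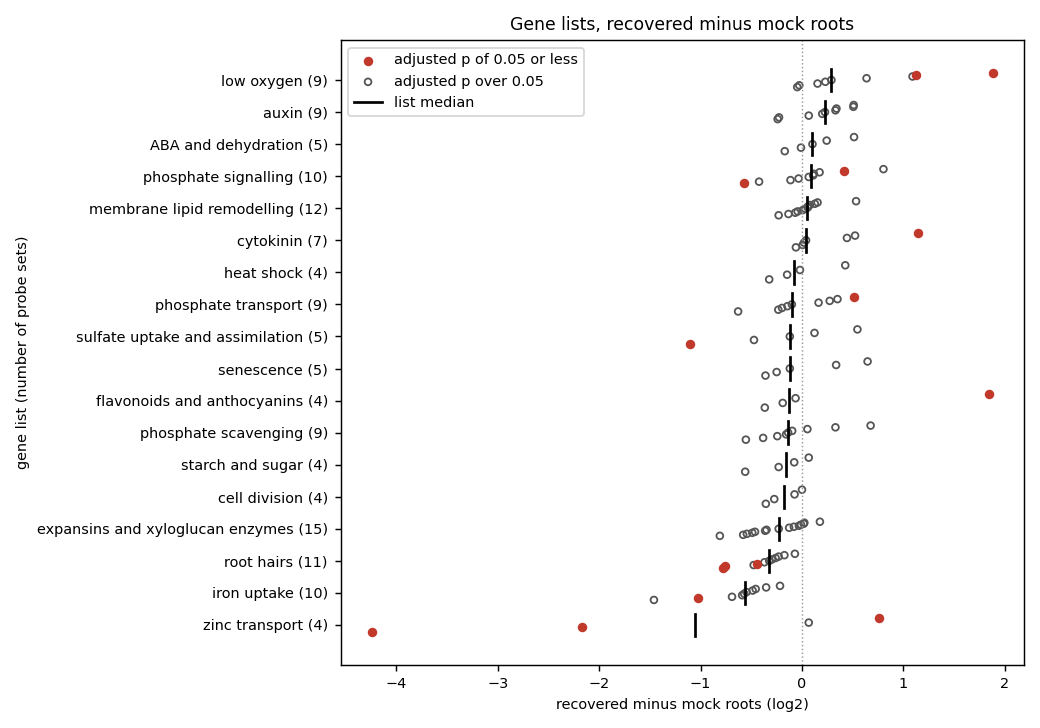
Recovered minus mock difference in roots (x axis, log2) of each probe set in the gene lists with 4 or more probe sets (down the page, number in brackets), with calls at an adjusted p of 0.05 or less as filled red points and list medians as black bars. All iron uptake and root hair members lie left of 0, and phosphate transport, scavenging and lipid genes lie on both sides of it. Some members were named only through the study's table of probe sets called in roots.

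The same contrast was set beside that of the shoots. Recovered shoots differed from mock shoots at 277 probe sets higher (1.22%) and 342 lower (1.5%), 2.72% in all, and the root and shoot differences themselves differed at 104 probe sets (0.457%), 56 with a higher (0.246%) and 48 with a lower (0.211%) root value. Of the 48 named genes chosen by size, threshold or kind, 22 were among them. These genes were chosen on their root difference, which is part of the tested difference, so that share is not compared with 0.457%. MTPA1 differed by -4.24 in roots and 0.20 in shoots, and CA2 by -3.60 in roots and 0.42 in shoots. AT3G02480 was called in opposite directions, with a difference of -1.40 in roots and 1.01 in shoots (adjusted p = 0.0383 by limma in shoots). ZIP9 and AT1G20380 were lower in recovered shoots too, by -1.47 and -1.89 (adjusted p of 0.0206 and 0.0133 by limma).

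**Figure D5:**
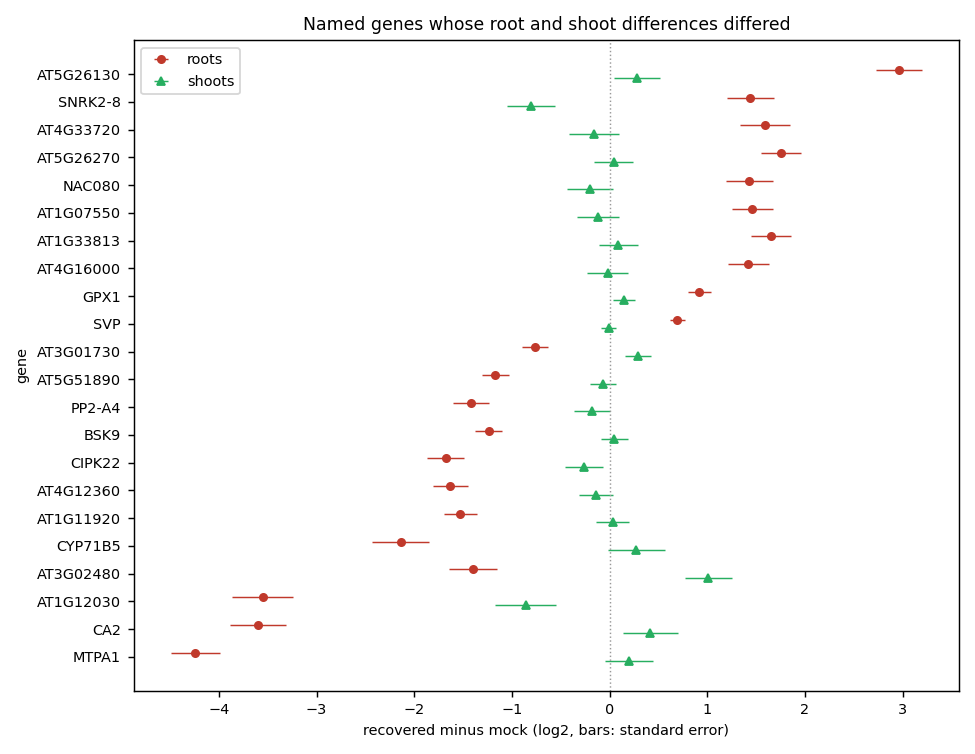
Recovered minus mock difference (x axis, log2, bars give the standard error of the fit) in roots (red circles, upper of each pair) and shoots (green triangles) for the 22 named genes (down the page) whose root and shoot differences differed. Only AT3G02480 has a shoot value past the threshold, at 1.01, while the root values run from -4.24 for MTPA1 to 2.96 for AT5G26130.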

How the data were processed

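RNA of roots and shoots was measured on ATH1 arrays, 18 in 6 groups of 3, which the labels call biological replicates. The deposited values are on the log2 scale. According to the study's methods, the authors corrected the background, normalized quantiles across arrays and summarised each probe set by median polish in affy, whose version was not stated. Values ran from 1.33 to 13.45, 64 control probe sets (AFFX) were left out, and scanner files were not used here. The number of arrays limits the precision.

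A limma 3.58.1 model (R 4.3.3) with 1 mean per group was fitted to all 18 arrays, with the contrast recovered minus mock roots, moderated by eBayes. P-values are two-sided, from this fit, and Benjamini-Hochberg adjusted over 22746 probe sets, with calls at 0.05. They measure the spread between these arrays. The script was tested on simulated data with known changes. The study's methods name a Bonferroni correction, which was tried as an alternative, as was a threshold of 0.001.

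Names came from the platform table (1 gene for 13513 probe sets, several for 503) or, for a further 551, from a supplementary table of the study that lists probe sets called in roots, names only. The remaining 8179 are unnamed here. Of 463 listed genes kept after a symbol check in RefSeq (TAIR10.1), 169 had a probe set named here and are called measured. The rest were not examined. They are not shown to be missing from the array, and the study reports array results for some of them. Named genes were called, had separate groups and kept their sign without recovered array 1. They were the 15 largest rises and 15 largest falls, all at 0.001 and the 6 largest of each kind (still displaced, past the mock level) and direction. Up to 4 per list by p were added, called or not and without those conditions. Members and lists were chosen with earlier results of these data known. Other genes named were chosen after their values were seen.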

Additional observations from a re-analysis of the deposited data

Results flagged for a closer look

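For 22 named genes the recovered minus mock difference in roots differed from that in shoots by the test of the difference itself (limma interaction, adjusted over all probe sets, n = 3 arrays per group), at adjusted p from 1.53e-05 for MTPA1 to 0.0499 for PP2-A4 and GPX1. The genes were chosen on their root difference, which is part of this test. Neither their number nor their p-values are independent of that choice. No cause was tested. The root minus shoot value on the log2 scale was lowest at -4.44 for MTPA1 and -4.01 for CA2. It was -2.69 for AT1G12030, -2.41 for CYP71B5 and -2.41 for AT3G02480. Among the other genes with a deeper root fall it was -1.56 for AT1G11920, -1.49 for AT4G12360, -1.42 for CIPK22, -1.29 for BSK9, -1.24 for PP2-A4, -1.10 for AT5G51890 and -1.06 for AT3G01730. It was positive for the PR-1 relatives, at 2.69 for AT5G26130 and 1.74 for AT4G33720. SNRK2-8 gave 2.25, with a root rise of 1.44 and a shoot value of -0.81 that did not pass (adjusted p = 0.0856 by limma). The others were 1.71 for AT5G26270, 1.63 for NAC080, 1.58 for AT1G07550, 1.56 for AT1G33813, 1.44 for AT4G16000, 0.77 for GPX1 and 0.70 for SVP. Groups of 3 arrays were too small for a test of single outlying values.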

How the results depend on the processing

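The direction of all 64 called probe sets under the naming rule held under every alternative, and 18 of them also kept an adjusted p at or under 0.05 under all of them in which they were tested. The counts did not hold. With all 18 arrays, 407 probe sets were higher, 246 lower, 120 still displaced and 65 past the mock level. At 0.001 these were 5, 10, 5 and 0, and under Bonferroni 7, 15, 6 and 0. With only the 9 root arrays they were 64, 51, 36 and 10, and with quantile normalization repeated over those arrays 61, 46, 39 and 10. With only the 6 recovered and mock arrays, 36 were higher and 28 lower. Array weights gave 1634, 1031, 369 and 421. Centring on the 2 reference genes gave 242 higher and 160 lower, and centring on the control probe sets gave 162 lower. The cause of these shifts was not tested. Without 1 root array at a time the counts ran from 48 to 1020 higher, from 39 to 587 lower, from 26 to 292 still displaced and from 8 to 189 past the mock level. Without recovered array 1 and starved array 3 together, an alternative chosen after seeing the data, they were 1372, 804, 359 and 372. No alternative moved the median of all probe sets by over 0.1.

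Whether replicate numbers paired the samples cannot be told from these values. The deviations of same-numbered recovered and mock root arrays correlated at -0.06, 0.40 and -0.11. Those of differently numbered arrays ran from -0.42 to 0.38, and deviations within groups of 3 arrays are not independent. The fit with the replicate block called 613 higher, 323 lower, 162 still displaced and 105 past the mock level, and 635 of the 653 calls remained.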

Other observations

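The groups below were picked after the values were seen, so no group has a test and nothing is read from its count. Over all probe sets, 1.79% were called higher and 1.08% lower in recovered roots. All 4 SnRK2 kinases with a named probe set, of 10 in the family, were higher in recovered roots. Beside SNRK2-8, SNRK2.9 had 9.84, 9.48 and 9.59 in recovered roots against 8.43, 8.67 and 8.87 in mock roots. SNRK2.7 had 7.89, 8.70 and 8.55 in recovered roots against 7.55, 7.88 and 7.38 in mock roots, and SNRK2.10 had 8.0, 8.14 and 8.12 against 7.40, 7.57 and 7.54. SNRK2.9 lost its call without any 1 of the recovered or mock arrays (adjusted p of at most 0.188 by limma, difference 0.87) and SNRK2.7 without mock array 1 or 3 or recovered array 2 or 3 (0.12, 0.69). All 4 were named through the study's table of probe sets called in roots, which would leave uncalled members without a name. Of 11 listed flowering regulators 5 were measured, and 4 of these were higher, against 1.79% of all probe sets, but 3 of the 5 were named through the same table. With FPF1 and SVP these were FD, a bZIP partner of the flowering signal FT, with 5.63, 5.68 and 5.99 in recovered roots against 4.95, 5.11 and 4.54 in mock roots, and AGL20 (SOC1), a floral promoter, with 7.85, 7.70 and 7.62 in recovered roots against 7.03, 7.17 and 7.18 in mock roots. FD lost its call without mock array 3 or recovered array 3 (0.0653, 0.79). Recovered plants were 3 days older, and age cannot be told apart from recovery here.

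Of 12 measured enzymes of glycolysis, its pyrophosphate-linked steps and its bypass, 6 were lower and 1 higher in recovered roots, against 1.08% and 1.79% of all probe sets, with a median of -0.44. PPC1, a phosphoenolpyruvate carboxylase, had 10.13, 9.69 and 9.74 in recovered roots against 10.92, 10.56 and 10.52 in mock roots. The phosphoglycerate mutase iPGAM2 had 8.10, 7.83 and 7.68 in recovered roots against 8.89, 8.42 and 8.61 in mock roots. AT5G42740, a phosphoglucose isomerase, was lower by -0.65 and kept its call without any single array. AT1G12000 and AT1G20950, subunits of the pyrophosphate-dependent phosphofructokinase, were lower by -0.47 and -0.50, while MEE51, another subunit, was higher by 0.57. Without recovered array 3 these were -0.36, -0.33 and 0.51, with adjusted p of 0.106, 0.219 and 0.102 by limma. PPC1 and iPGAM2 lost their calls without mock array 1 or recovered array 3, and PPC1 also without recovered array 2, at adjusted p of at most 0.114 and 0.0591. AT1G12000 was lost also without mock array 1 or 3, MEE51 without these or recovered array 2, and AT1G20950 in 7 of the 9 fits, those without starved array 3 or recovered array 1 excepted. Of the 12, 8 were named through the study's table.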
